A study of Gallus gallus with 20 samples.

Results

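ChrUn27_FK6 is 1 of 97 feather keratins among the 180 keratins in the deposited tables, which list 16290 genes in all. It was chosen by its measured values, as the keratin with the widest span between normal feather and control scale on the scale of log2(RPKM + 1). RPKM divides the reads of a gene by the length of its model and by the size of the library, so levels of different genes can be set side by side. The feather and control scale values therefore chose the gene, and every value that sets one against the other is given below as a description with no test.

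The libraries came from White Leghorn chicken embryos on embryonic day 16. Normal feather was dissected as dorsal skin (n = 2). All other libraries came from scutate scales, the broad plates that overlap along the front of the bird's foot, so feather differed from them in body site too. Scales of the RA group had received retinoic acid, a vitamin A derivative, in the amniotic cavity on embryonic day 9 (n = 2). The remaining scale groups carried 1 gene each in RCAS, a replicating avian retroviral vector. These were Sox18 (n = 3) and Sox2 (n = 2), both transcription factors, Spry2, which dampens signals of receptor tyrosine kinases (n = 2), beta-catenin, which carries Wnt signals to the nucleus (n = 2), Grem1, which binds and blocks bone morphogenetic proteins outside the cell (n = 2), Zic1-deltaC, a construct known here by that name only (n = 3), and green fluorescent protein (GFP), the control (n = 2). Per the labels, virus was injected into the amniotic cavity and hind limb on embryonic day 3, or RCAS plasmid was electroporated, without saying which group received which. The labels name no virus for feather or RA scales, and no vehicle group accompanies RA. RCAS spreads from cell to cell, and the share of infected cells in a scale was not measured.

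Feather keratins are small beta-keratins of birds, the structural proteins that pack into filaments as the keratinocytes of feather barbs and barbules harden. They are encoded by large families of similar genes in clusters, and scales and claws draw on other beta-keratin families of the same kind. The prefix ChrUn27 reads as sequence linked to chromosome 27 without a place on it, which the files do not spell out. The files give no coordinates or sequence for the gene, and the RefSeq gene table used here holds no entry of that name. The labels do not say whether replicates were separate embryos, so the p-values below measure only the spread between these libraries, which may be technical.

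The library labels were checked against keratin classes. Summed feather keratins were 548770.0 and 462430.0 RPKM in feather, and lay between 3622 and 211230.0 RPKM in the 18 scale libraries. Claw and scale keratins, which mark scale, summed to at most 49.9 and 317 RPKM in feather. They were far lower in Sox2 scales (655.6 and 451.5 RPKM of claw keratins) than in GFP scales (35110.4 and 41691 RPKM). Read totals were not analysed here and values were given to 1 decimal, so depth is unknown. GFP replicate 1 stood apart from its partner, with 39 genes at 5 RPKM or more and at least 10 times their level in replicate 2, of which 0 were keratins. In bulk tissue, fewer cells making a transcript and less transcript per cell cannot be told apart.

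ChrUn27_FK6 was among the most abundant transcripts of the feather libraries and near the floor of the table in GFP scales. It stood at 24501.1 and 24369.7 RPKM in feather and at 0.8 RPKM in both GFP libraries. The feather mean was 24435 ± 92.9 RPKM (SD, n = 2), 30544 times the GFP mean. That made it the 8th and the 6th most abundant of all genes in the feather libraries. On the log2(RPKM + 1) scale its span was 13.73, the widest of all 16290 genes. Among keratins Chr27_FK46 at 11.9184 and Chr27_FK45 at 11.9181 followed. The next widest ran the other way, Chr25_Claw4 at -11.26, with 0.8 RPKM in feather and 4422 RPKM in GFP scales. ChrUn27_FK5 came after it at 11.17. On a linear scale the gene was not the widest. Its difference of 24435 RPKM ranked 7th among keratins, behind Chr25_FK11 with 51814 RPKM and Chr1_FK1 with 48890 RPKM, both of which were more abundant in feather but stood at 2384 and 1505 RPKM in GFP scales.

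Scales given RA held the next highest level. ChrUn27_FK6 stood at 7547.2 and 7419.8 RPKM, a mean of 7484 ± 90.1 RPKM (SD, n = 2) and 30.6% of the feather mean. It ranked 7th of all genes in both RA libraries, so its place among transcripts was close to that in feather. Its level as deposited was 3.27 times lower than in feather. Sox18 scales followed at 1846.1, 1792.1 and 1354.3 RPKM (mean 1664 ± 270, SD, n = 3), 6.81% of the feather mean. The ratios to feather here and above are those of deposited values and depend on scaling. After the median-ratio scaling over 20 libraries used below for the group order, the feather mean was 52565 RPKM. The scaled means were 8591 RPKM with RA, 1744 RPKM with Sox18 and 0.713 RPKM in GFP scales. Feather thus stood further above these groups after scaling than as deposited.

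Spry2 and beta-catenin scales held intermediate levels with wide gaps between replicates. The Spry2 libraries stood at 528.6 and 1699.7 RPKM (mean 1114 ± 828, SD, n = 2), a 3.22-fold gap. The beta-catenin libraries stood at 484.9 and 1057.2 RPKM (mean 771 ± 405, SD, n = 2), a 2.18-fold gap. The Spry2 range overlapped both the Sox18 and the beta-catenin range. Summed feather keratins moved the same way between these replicates, at 7628 and 24999 RPKM in Spry2 and 32316 and 51394 RPKM in beta-catenin scales; their part in the gaps was not tested.

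The lowest levels were found in Sox2, Grem1, Zic1-deltaC and GFP scales. Sox2 libraries stood at 73.7 and 8.7 RPKM, an 8.47-fold gap, and Grem1 libraries at 28 and 14.4 RPKM (mean 21.2 ± 9.62, SD, n = 2). Zic1-deltaC replicates 1 and 2 were listed at 0 and replicate 3 at 54.9 RPKM. The Sox2 range enclosed both Grem1 values, and the Zic1-deltaC range enclosed the Sox2, Grem1 and GFP values apart from Sox2 replicate 1. Zic1-deltaC replicates 1 and 2 were thus below the GFP libraries and replicate 3 above them.

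**Figure D1:**
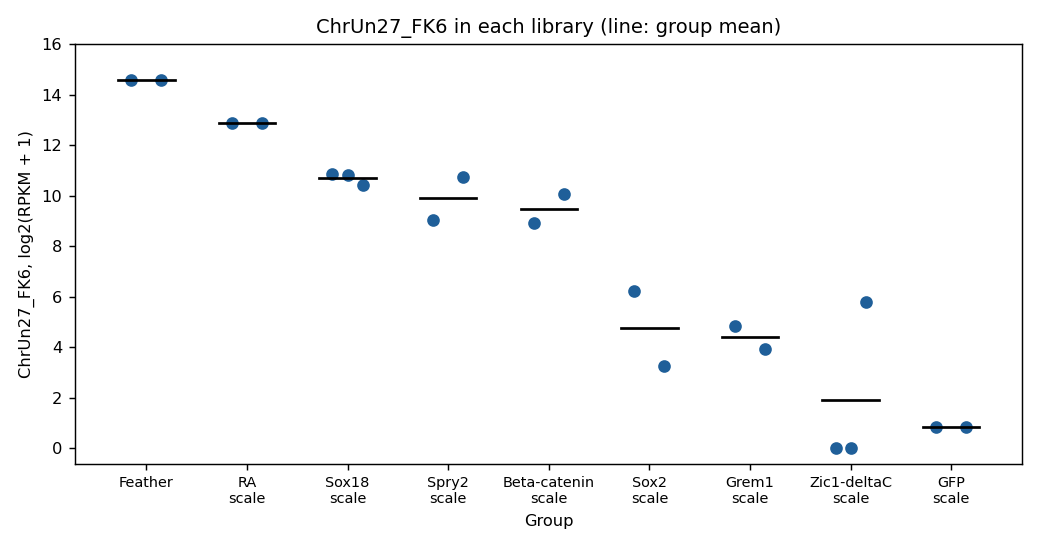
ChrUn27_FK6 in each of the 20 libraries, as log2(RPKM + 1), with groups on the horizontal axis in falling order of their mean; points are libraries and lines are group means. Feather and RA scales stand apart at the top, Sox18, Spry2 and beta-catenin scales form a middle band, and the Zic1-deltaC libraries split between 0 and 5.80.

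The order of group means of log2(RPKM + 1), and of mean RPKM, was feather, RA, Sox18, Spry2, beta-catenin, Sox2, Grem1, Zic1-deltaC and GFP. Feather and RA each lay clear of all other groups, and beta-catenin lay clear of Sox2. The other neighbours in this order overlapped. With each of the 20 libraries scaled by its median ratio to the others, the log2 means of Grem1 and Sox2 changed places and the other 7 groups kept theirs. With the 16 libraries of the scale groups other than GFP scaled among themselves, Sox2 minus Grem1 was -0.0231. The RPKM means scaled over all 20 libraries did not change places, at 29.4 in Sox2 and 19.6 in Grem1 scales.

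The 7 scale groups other than GFP took no part in choosing the gene, and all 21 pairs of them were compared. limma was fitted over 11789 genes in these 16 libraries on log2(RPKM + 1). The p-values were adjusted within each pair over all genes by the Benjamini-Hochberg method, and the threshold was 0.05. ChrUn27_FK6 was called in 12 of the 21 pairs. The 12 were all pairs that set RA, Sox18, Spry2 or beta-catenin scales against Sox2, Grem1 or Zic1-deltaC scales. Its libraries did not overlap in 16 of the 21 pairs, the 12 called among them. The share of all genes without overlap was not computed, so overlap is given as a description only. Calls were common over all genes, between 30% and 83.5% of them in these pairs, so a call alone says little about the gene and the size of its difference is given in each case. The same 12 pairs passed with p-values adjusted over all genes and all 21 pairs together.

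RA scales exceeded Grem1 scales by a log2 difference of 8.47 (SE 1.47, limma adjusted p = 0.000318, with 57.7% of all genes called). They exceeded Sox2 scales by 8.12 (SE 1.47, limma adjusted p = 0.000154, with 83.5% of genes called). RA exceeded Zic1-deltaC by 10.93 (SE 1.34, limma adjusted p = 1.056e-05, with 71.3% of genes called). Differences from Zic1-deltaC depend on the pseudocount, since that group's values include listed zeros. The RA libraries lay at or above 7419.8 RPKM and the libraries of those other groups at or below 73.7 RPKM.

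Sox18 scales exceeded Grem1 scales by 6.29 (SE 1.34, limma adjusted p = 0.00137, with 53.2% of genes called) and Sox2 scales by 5.94 (SE 1.34, limma adjusted p = 0.00108, with 78.6% of genes called). The difference between Sox18 and Zic1-deltaC was 8.75 (SE 1.20, limma adjusted p = 2.569e-05, with 64.5% of genes called). All 3 Sox18 libraries were above 1354 RPKM.

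Spry2 scales exceeded Grem1 scales by 5.49 (SE 1.47, limma adjusted p = 0.0113, with 35% of genes called). They exceeded Sox2 scales by 5.14 (SE 1.47, limma adjusted p = 0.0103, with 50.8% called) and Zic1-deltaC scales by 7.96 (SE 1.34, limma adjusted p = 0.000466, with 37.9% called). The Grem1 call ended without Spry2 replicate 2 (limma adjusted p = 0.0791) or Grem1 replicate 2 (0.0696). The Sox2 call ended without Spry2 replicate 2 (limma adjusted p = 0.0781) or Sox2 replicate 2 (0.107), and both calls ended with a pseudocount of 0.1 (0.0650 for Grem1 and 0.0631 for Sox2).

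Beta-catenin scales exceeded Grem1 scales by 5.08 (SE 1.47, limma adjusted p = 0.0180, with 30% of genes called). They exceeded Sox2 scales by 4.74 (SE 1.47, limma adjusted p = 0.0107, with 70.8% called) and Zic1-deltaC scales by 7.55 (SE 1.34, limma adjusted p = 0.000444, with 49.8% called). The Grem1 call ended without beta-catenin replicate 2 (limma adjusted p = 0.109), Grem1 replicate 1 (0.0553) or Grem1 replicate 2 (0.0923), with no filter (0.0604), with a robust prior (0.0596) and with a pseudocount of 0.1 (0.0946). The Sox2 call ended without beta-catenin replicate 2 (limma adjusted p = 0.0630), without Sox2 replicate 2 (0.113) and with a pseudocount of 0.1 (0.0635).

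The 9 remaining pairs did not pass. RA exceeded Sox18 scales by 2.18 (95% interval -0.70 to 5.07, limma adjusted p = 0.202, with 44.4% of genes called), Spry2 by 2.98 (-0.18 to 6.14, limma adjusted p = 0.0801, 74.6% called) and beta-catenin by 3.38 (0.22 to 6.54, limma adjusted p = 0.0687, 51.4% called), although the RA libraries lay above all libraries of those groups. Among the middle groups, Sox18 exceeded Spry2 by 0.80 (-2.09 to 3.68, 65.6% of genes called) and beta-catenin by 1.20 (-1.68 to 4.09, 51% called). The Sox18 libraries lay above the beta-catenin libraries. With only those groups fitted, that pair passed (SE 0.301 against 1.34, limma adjusted p = 0.01325). Spry2 exceeded beta-catenin by 0.40 (-2.76 to 3.56, 42.5% called). At the low end, Sox2 exceeded Grem1 by 0.35 (-2.81 to 3.51, 67.5% of genes called) and Zic1-deltaC by 2.82 (-0.07 to 5.70, 60.4% called), and Grem1 exceeded Zic1-deltaC by 2.47 (-0.42 to 5.35, 43.9% called). These intervals are wide, so they leave room for differences of several log2 units either way in the pairs nearest 0.

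1 library had a large part in that width. Without Zic1-deltaC replicate 3 the SE of a difference between groups of 2 fell to 0.743, against 1.47 with it, and 17 of the 21 pairs passed. The 5 added calls were RA over Sox18 (limma adjusted p = 0.0206), RA over Spry2 (0.00311), RA over beta-catenin (0.00278), Sox2 over Zic1-deltaC (0.000216) and Grem1 over Zic1-deltaC (0.000733). The whole Zic1-deltaC group was also left out, a setting chosen after the data were seen. Then 11 of the 15 remaining pairs passed, against 8 with it, the 3 added calls being the same RA pairs.

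**Figure D2:**
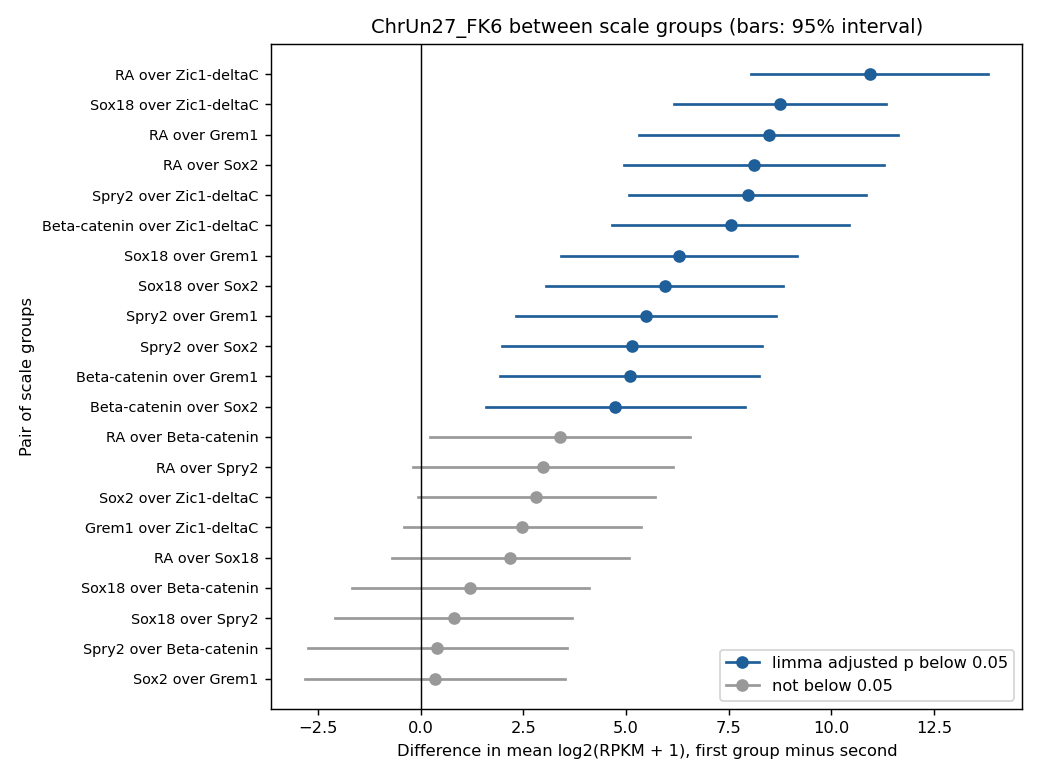
Differences in mean log2(RPKM + 1) of ChrUn27_FK6, first group minus second, for the 21 pairs of scale groups other than GFP; points are differences, bars are 95% intervals, and blue marks a limma adjusted p below 0.05. The 12 pairs that set RA, Sox18, Spry2 or beta-catenin scales against Sox2, Grem1 or Zic1-deltaC scales lie to the right, from 4.74 to 10.93.

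The share of the gene in all feather keratin RPKM followed another order. ChrUn27_FK6 made up 6.93% and 6.80% of the feather keratin sum in Spry2 scales, the highest shares of all 20 libraries. The share was 4.46% and 5.27% in feather, 3.60% and 3.51% with RA, 1.5% and 2.06% with beta-catenin, and 0.945%, 1.046% and 1.048% with Sox18. It was 1.18% and 0.240% with Sox2, 0.198% and 0.115% with Grem1, and 0.00502% and 0.00426% in GFP scales. In Zic1-deltaC replicates 1, 2 and 3 it was 0%, 0% and 0.300%. Although the Spry2 replicates differed 3.22-fold in level, their shares differed little. Spry2, beta-catenin and Grem1 libraries were also those in which some near-equal keratins split, and the part of this in the shares was not tested. The gene was the 4th most abundant feather keratin in both Spry2 libraries, the 7th and the 6th in the feather libraries, and between 20th and 22nd in Sox18 libraries.

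**Figure D3:**
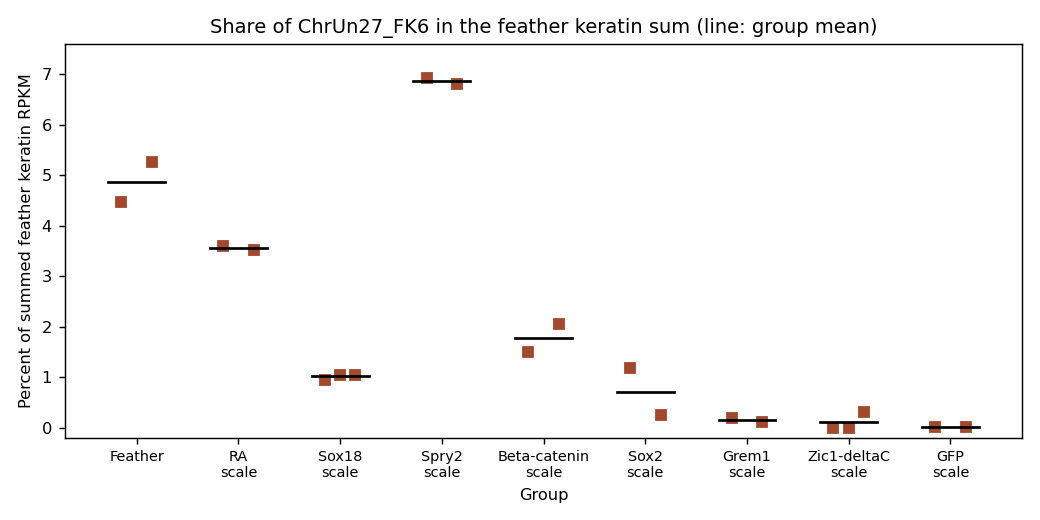
Percent of the summed feather keratin RPKM taken by ChrUn27_FK6 in each library, with groups in the same order as in the plot of levels; squares are libraries and lines are group means. Spry2 scales stand highest at 6.93% and 6.80%, above feather at 4.46% and 5.27%. Sox18 scales, whose levels in RPKM overlapped those of Spry2 scales, stand near 1%.

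Feather keratins as a class give the setting for these shares. Between Spry2 and beta-catenin scales 0 of 84 feather keratins tested were higher in Spry2 and 48 were lower, against 34.1% of all genes higher and 8.39% lower, and the median feather keratin differed by -1.61 against 0.18 for all genes. ChrUn27_FK6 differed by 0.40 in that pair and was not called. Between Spry2 and Zic1-deltaC scales 23 of 84 feather keratins were higher in Spry2 and 26 lower (23.4% and 14.5% of all genes), with a median of -0.17, while ChrUn27_FK6 was 7.96 higher. Between Sox2 and Zic1-deltaC scales 2 of 84 were higher in Sox2 and 50 lower (48.9% and 11.5% of all genes), with a median of -2.00, and ChrUn27_FK6 differed by 2.82, not called. Between Sox2 and Grem1 scales 4 were higher in Sox2 and 38 lower (55.9% and 11.6% of all genes). The median there was -1.20 against 0.35 for ChrUn27_FK6, not called. Between Grem1 and Zic1-deltaC scales 3 were higher in Grem1 and 33 lower (15.5% and 28.5% of all genes). The median was -0.53 against 2.47 for ChrUn27_FK6, not called. Some near-equal feather keratins split in Spry2 and Grem1 libraries but not in Sox2 and Zic1-deltaC libraries, as described below. The part of this in the class counts and medians of Spry2 or Grem1 against Sox2 or Zic1-deltaC was not tested.

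In the rest of the 21 pairs the gene and the class median lay on the same side, and examples follow. Between beta-catenin and Grem1 scales 59 of 84 feather keratins were higher with beta-catenin and 1 lower (12.4% and 17.6% of all genes), with a median of 2.72 against 5.08 for ChrUn27_FK6. Between RA and Sox18 scales 23 were higher with RA and 2 lower (15% and 29.4% of all genes), with a median of 0.79 against 2.18. The side of the class median was unchanged with median-ratio scaling and quantile normalization in all pairs whose counts are given here. The side of ChrUn27_FK6 turned between Sox2 and Grem1 with median-ratio scaling. It stood at -0.0231 there, on the side of the class median of -1.47. Median-ratio scaling moved the median of all genes by -0.19 between Spry2 and beta-catenin, by -0.24 between Sox2 and Zic1-deltaC and by 0.11 between RA and Sox18. As deposited, 80.2% of all genes called between Spry2 and beta-catenin were higher in Spry2, against 47.8% after scaling. The same shares were 80.9% and 45.3% between Sox2 and Zic1-deltaC, 61.7% and 50.3% between Spry2 and Zic1-deltaC, and 33.7% and 54.5% between RA and Sox18.

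The keratins whose profile was most like that of ChrUn27_FK6 were all feather keratins, read from Pearson's r of log2(RPKM + 1) over the 20 libraries. Libraries share depth and composition across genes, so r is a description and has no p. ChrUn27_FK12 came first (r = 0.988), followed by Chr27_FK40 (0.961), Chr27_FK41 (0.961), Chr27_FK45 (0.958), Chr27_FK39 (0.956), Chr27_FK38 (0.953), ChrUn27_FK5 (0.950), Chr27_FK46 (0.918), Chr27_FK44 (0.918) and ChrUn27_FK3 (0.917). These 10 were also the first 10 of all 11862 genes compared. Over the 16 libraries that did not choose the gene, ChrUn27_FK12 was again first (r = 0.980), and Chr27_FK46 dropped to 0.858. All 7 members named for chromosome 27 carry numbers between 38 and 46, whose order along the chromosome is not given in the files.

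Among the 50 most similar genes, 22 were feather keratins, 1 was a keratinocyte keratin and 27 had only an Ensembl identifier and no name in the files. The closest of those was ENSGALG00000022935 (r = 0.913). The median r was 0.675 over 83 other feather keratins, -0.13 over 33 alpha-keratins, -0.27 over 16 scale keratins, -0.41 over 12 claw keratins and -0.54 over all genes. These values include the feather and GFP libraries that chose the gene. Over the other 16 libraries the medians were 0.612 for feather keratins, -0.12 for alpha-keratins, 0.057 for scale keratins, 0.091 for claw keratins and -0.39 for all genes, and all 12 claw keratins had r above 0 (0.032 to 0.164). RPKM is relative, and keratins made up 74.4% and 68.8% of the summed RPKM in feather and 22.3% and 25.3% in GFP scales. After median-ratio scaling over the 20 libraries, r of single alpha-keratins moved unevenly. It went from -0.60 to -0.096 for KRT14, from 0.197 to 0.627 for KRT8 and from -0.68 to -0.715 for KRT4. The class medians above hold for deposited values only and were not computed after scaling.

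The 3 keratins least like it over the 20 libraries were alpha-keratins, the intermediate filament proteins of epidermis. KRT15 (r = -0.82) and KRT5 (r = -0.72) mark the basal epidermal layer in mammals, and KRT4 (r = -0.68) marks internal stratified epithelia there. KRT14, also a basal keratin there, had r = -0.60 as deposited and -0.096 after median-ratio scaling. The median r over all genes as deposited was -0.54. Over the 16 libraries that did not choose the gene, KRT15 had r = -0.83, KRT4 -0.62, KRT5 -0.53 and KRT14 -0.30. KRT19, an alpha-keratin of simple epithelia in mammals, was level with KRT15 at -0.82. KRT8 and KRT18, also of simple epithelia there, did not follow KRT19, with r = 0.0985 and -0.115 over these 16 libraries. KRT15 averaged 145 ± 30.1 RPKM in feather (SD, n = 2), 463 ± 31.8 RPKM with RA (SD, n = 2) and 728 ± 65.3 RPKM in GFP scales (SD, n = 2). Its highest mean was 1035 ± 93.5 RPKM in Grem1 scales (SD, n = 2). KRT4 stood at 0.3 RPKM in both feather libraries, and its highest mean was 280.0 ± 5.80 RPKM in Sox2 scales (SD, n = 2).

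**Figure D4:**
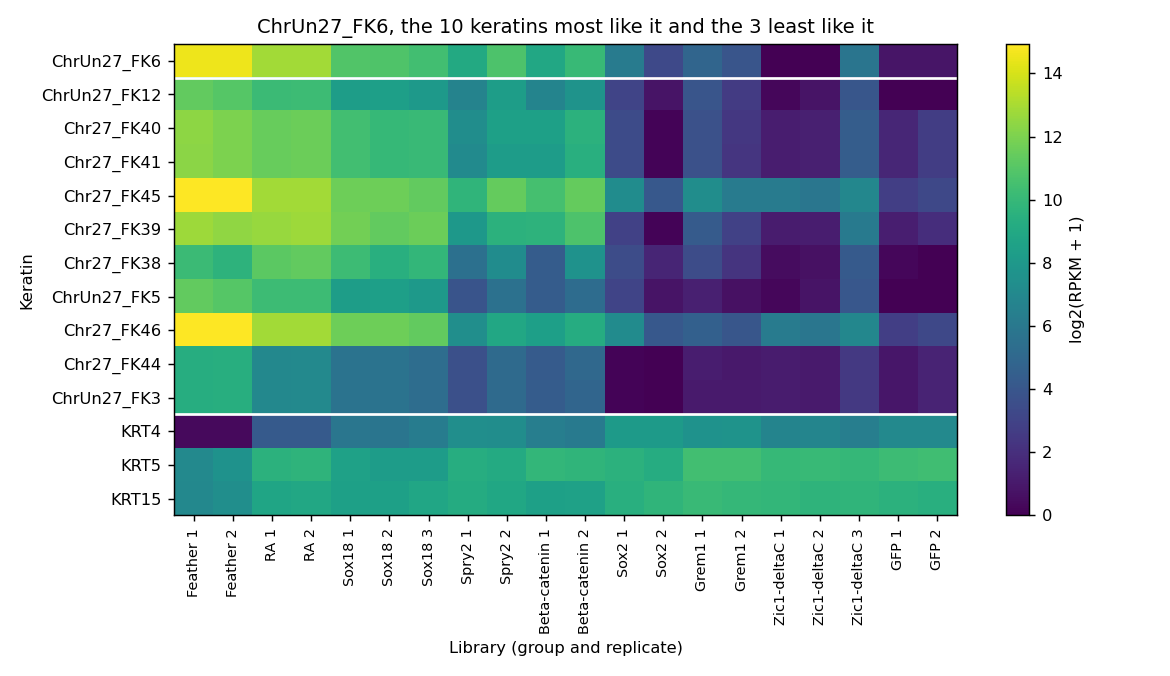
Level as log2(RPKM + 1), by colour, of ChrUn27_FK6 (top row), the 10 keratins most like it (between the white lines) and the 3 least like it (bottom rows), in each of the 20 libraries, with groups in the same order as in the plot of levels. The 10 similar keratins are high in feather and RA libraries and low in GFP libraries, and several share the higher level of Zic1-deltaC replicate 3, where ChrUn27_FK6 stood at 54.9 RPKM against a listed 0 in replicates 1 and 2.

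Near-identical feather keratins can share reads, and the authors' rule for such reads is not given in the sources used here. Of the 10 similar keratins, 4 pairs stood within 2% of each other in all feather and RA libraries. ChrUn27_FK12 and ChrUn27_FK5 were such a pair. Their ratio was 0.968 to 1.003 in the 9 libraries of feather and of RA, Sox18, Sox2 and Zic1-deltaC scales where ChrUn27_FK5 reached 1 RPKM, and 5.41 to 9.47 in 5 libraries of the beta-catenin, Grem1 and Spry2 groups. Chr27_FK45 and Chr27_FK46 split in the same groups, at 4.42 to 6.79 there and 0.971 to 1.04 in the other 14 libraries. ChrUn27_FK6 itself had no such partner. Of the 15 libraries where it reached 10 RPKM, no keratin was within 2% of it in more than 2, and the keratins at that number were Chr27_FK45 and Chr27_FK46. Whether its own reads were counted differently in the libraries of Spry2, beta-catenin and Grem1 was not tested. Of the 12 calls above, 6 were among the 9 pairs that stay on one side of this divide and 6 among the 12 that cross it.

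ChrUn27_FK12 stood below ChrUn27_FK6 in every library where both were above 0. It was at 2570.6 and 2033.0 RPKM in feather, 1177.8 and 1209.1 RPKM with RA, and was listed at 0 in both GFP libraries. ChrUn27_FK6 exceeded it 9.53- and 11.99-fold in feather, 6.41- and 6.14-fold with RA, 5.11- to 5.81-fold with Sox18, and 9.96- and 12.4-fold with Sox2. Over ChrUn27_FK5 the ratios in these groups were alike, at 9.52 and 11.8 in feather, 6.34 and 6.13 with RA, 5.10 to 5.83 with Sox18, and 9.96 and 12.4 with Sox2. In Zic1-deltaC replicate 3 the ratio was 3.66 over ChrUn27_FK12 and 3.54 over ChrUn27_FK5. With Spry2, beta-catenin and Grem1 the ratio depended on which of the pair was used. It was 5.23 and 5.38 over ChrUn27_FK12 but 38.3 and 37.3 over ChrUn27_FK5 with Spry2. It was 4.67 and 5.17 against 25.4 and 27.97 with beta-catenin, and 1.97 and 2.88 over ChrUn27_FK12 against 18.7 and 24 over ChrUn27_FK5 with Grem1. For these 3 groups no ratio to this pair can therefore be set beside those of the other groups.

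Chr27_FK45 and Chr27_FK46 were keratins of similar abundance to ChrUn27_FK6 in feather and RA libraries. ChrUn27_FK6 was at 0.784 and 0.795 of the level of Chr27_FK45 in feather, at 1.02 in both RA libraries, at 0.529 to 0.577 with Sox18, at 0.488 and 0.544 with Sox2, and at 0.138 and 0.0952 in GFP scales. Over Chr27_FK46 the ratio was 0.784 and 0.795 in feather, 1.019 and 1.015 with RA, 0.529 to 0.577 with Sox18, 0.508 and 0.544 with Sox2, and 0.138 and 0.0952 in GFP scales. Among these 5 groups the ratio was thus highest with RA and lowest in GFP scales by either keratin. For Spry2, beta-catenin and Grem1 the choice of keratin changed their place against these 5 groups, though not their order among themselves. The ratio was 0.611 and 0.629 over Chr27_FK45 but 3.17 and 3.37 over Chr27_FK46 with Spry2, 0.325 and 0.383 but 1.44 and 1.72 with beta-catenin, and 0.179 and 0.197 but 1.22 and 0.954 with Grem1. Over Chr27_FK46 the highest ratio was that of Spry2, not RA. In Zic1-deltaC scales Chr27_FK45 stood at 71.7 and 56.0 RPKM in the libraries in which ChrUn27_FK6 was listed at 0, and at 117.5 RPKM in replicate 3, a ratio of 0.467.

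**Figure D5:**
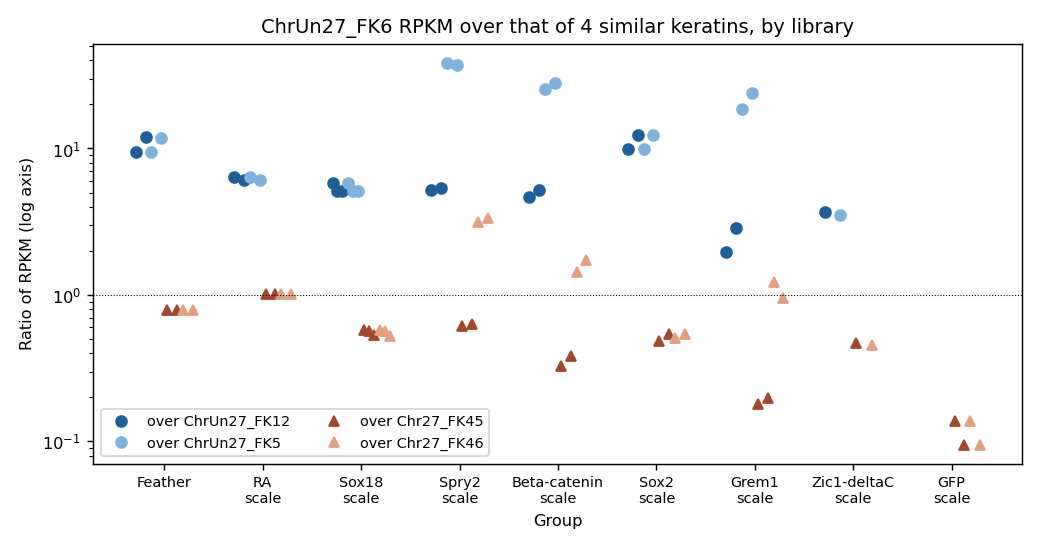
RPKM of ChrUn27_FK6 over that of ChrUn27_FK12 and ChrUn27_FK5 (dark and light circles) and of Chr27_FK45 and Chr27_FK46 (dark and light triangles) in each library, on a log axis; the dotted line marks equal levels, and ratios with a value listed at 0 are not drawn. Dark and light symbols lie together in feather, RA, Sox18, Sox2, Zic1-deltaC and GFP libraries and apart in Spry2, beta-catenin and Grem1 libraries, as with Spry2 at 5.23 and 5.38 over ChrUn27_FK12 and 38.3 and 37.3 over ChrUn27_FK5.

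In replicate 3 of Zic1-deltaC few genes stood far above replicates 1 and 2, and genes lower in it were not counted. Only 8 genes stood at 5 RPKM or more there and at least 10 times their level in both other libraries. Of these, 7 were feather keratins, namely ChrUn27_FK6 and 6 of the 10 most like it. Chr27_FK39 was at 67.8 RPKM there against 1.2 and 1.3 RPKM in replicates 1 and 2, and ChrUn27_FK12 at 15 against 0.2 and 0.7 RPKM. The others were Chr27_FK38, Chr27_FK40, Chr27_FK41 and ChrUn27_FK5. Summed feather keratins did not follow, at 21648, 18444 and 18297 RPKM in replicates 1, 2 and 3. In Sox2 replicate 1, 17 genes passed the same limits over replicate 2, of which 14 were feather keratins and 5 of those among the 10. Beyond these and GFP replicate 1, no library had more than 3 such genes. The 10 most like ChrUn27_FK6 were picked by r over all 20 libraries, the Zic1-deltaC and Sox2 libraries included. Their number among such genes is therefore partly built into the list.

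The other ChrUn27 feather keratins spanned a wide range. All 16 rows were listed, and 15, including ChrUn27_FK6, reached 1 RPKM in at least 2 libraries, the limit for testing. ChrUn27_FK6 made up 56.3% and 64.5% of their summed RPKM in feather. The next by feather mean was ChrUn27_FK7 with 4543 RPKM, then ChrUn27_FK5 with 2317 RPKM and ChrUn27_FK1 with 2310 RPKM. At the low end ChrUn27_FK9 reached at most 0.9 RPKM in any library. The share of ChrUn27_FK6 in this sum was also high in Spry2 (61.2% and 60.9%) and Sox2 scales (56.5% and 61.7%), 41.9% and 42.3% with RA, 21.2% to 23.1% with Sox18 and 22.9% and 29.5% with beta-catenin. It was 12.3% and 4.42% with Grem1, and at most 4.93% in Zic1-deltaC and 0.169% in GFP scales. The sum itself was 43483 and 37773 RPKM in feather but only 130.5 and 14.1 RPKM in Sox2 scales.

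Not every ChrUn27 row followed the profile. ChrUn27_FK11 was highest in Sox18 and RA scales, at up to 3015.2 RPKM with Sox18, and had r = 0.418 with ChrUn27_FK6. ChrUn27_FK2 reached its highest level, 46.7 RPKM, in beta-catenin scales (r = 0.094), and ChrUn27_FK8 stood at 127.9 and 228.0 RPKM in GFP scales (r = 0.325). Zic1-deltaC scales held ChrUn27_FK11 at 949.0, 796.7 and 705.9 RPKM, in the same libraries that listed ChrUn27_FK6 at 0, 0 and 54.9 RPKM. Of the 14 other ChrUn27 rows tested, 11 were higher in RA than in Zic1-deltaC scales and 1 lower (10.9% and 60.4% of all genes). Median-ratio scaling moved the median of all genes by 0.35 in that pair and gave 27.9% higher and 24.9% lower, while the 11 and 1 ChrUn27 rows stayed the same in number. As deposited, 15.2% of all genes called there were higher in RA, against 52.8% after scaling. In Spry2 against Zic1-deltaC scales, 5 of the 14 were higher in Spry2 and 4 lower (23.4% and 14.5% of all genes). Some near-equal keratins split in Spry2 but not in Zic1-deltaC libraries, and the part of this in these counts was not tested.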

How the data were processed

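Per the labels' protocols, Trizol was used for RNA and the Illumina TruSeq V2 kit for libraries. Per the submitters' processing notes, TopHat2, Partek and the build galGal4 were used; the sources used here give no versions or settings. The authors deposited RPKM values for 20 libraries in 2 tables, identical for all 180 keratins. Values are rounded to 1 decimal, and all 10 steps from 0.1 to 1 occur, so single reads could not be recovered from them.

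Tests used log2(RPKM + 1). Genes were tested if 2 or more of the 16 libraries fitted reached 1 RPKM, which kept 84 feather keratins. limma 3.58.1 in R 4.3.3 was fitted with an intensity trend (9 residual degrees of freedom, prior 4.63). Descriptions used Python 3.11.15. The code was tested on simulated data. Replicate numbers were not used as pairs. The gene, its class and the lists were chosen with earlier results of these data known. Keratins were named by rule: the 10 with the highest r and the 3 with the lowest, with other ChrUn27 rows by range and counts. ChrUn27_FK1, ChrUn27_FK2, ChrUn27_FK7, ChrUn27_FK8, ChrUn27_FK9, ChrUn27_FK11, Chr25_FK11, Chr25_Claw4, Chr1_FK1, KRT8, KRT14, KRT18 and KRT19 lie outside that rule and were named after their values were seen. Alternatives are given at the end.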

Additional observations from a re-analysis of the deposited data

How the results depend on the processing

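The 21 pairs were tested again under 28 other settings, 1 of them (without the Zic1-deltaC group) added after the data were seen. Of the 12 called pairs, 8 stayed past the threshold in every setting in which they could be fitted, and all 12 kept their direction, with a lowest log2 difference of 3.26. The number of calls was 12 with a filter at a mean RPKM of 5, median-ratio scaling, quantile normalization or no intensity trend. It was 11 with no filter or a robust prior, 13 with all 20 libraries and 9 with a pseudocount of 0.1. With only the groups compared it was 16. The 4 calls added there were RA over Sox18, RA over Spry2, RA over beta-catenin and Sox18 over beta-catenin. Leaving out single libraries gave 10 to 17 calls.

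Direction turned only in pairs that were not called. Sox2 over Grem1 became -0.0231 with median-ratio scaling, -0.11 without Grem1 replicate 2 and -1.12 without Sox2 replicate 1 (1.82 without replicate 2). Spry2 over beta-catenin became -0.16 without beta-catenin replicate 1 and -0.44 without Spry2 replicate 2 (1.25 without replicate 1), and Sox18 over Spry2 became -0.044 without Spry2 replicate 1 (1.64 without replicate 2). The cause was not tested.

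With the replicate number as a block, 14 pairs passed, and Sox18 over Spry2 became -0.10. Deviations of libraries with the same number had a correlation between -0.281 and 0.137 (median -0.01), so the numbers were not read as pairs.

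The 10 most similar keratins shared 7 members over all settings, and 9 to 10 when single libraries were left out. By rank among keratins 5 of the 9 groups kept their place in the order, with Spry2 above Sox18 and GFP above Zic1-deltaC. By share of the feather keratin sum 4 did, with Spry2 first.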
